A study of Mus musculus with 16 samples.

Results

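The 500 regions described here were the H3K9me3 peaks with the highest density of input reads in small intestinal crypts of the mouse. Histone H3 trimethylated at lysine 9 (H3K9me3) was mapped by chromatin immunoprecipitation and sequencing (ChIP-seq), and input is the sonicated chromatin sequenced without an antibody. Input density was the mean of the WT and KO input read counts of a peak divided by its width in kb, and the 500 peaks were chosen by the highest of these input values from 212313 peaks. Each peak is named here by its place in that order and by the gene that it overlaps or that lies within 5 kb. WT mice were labelled wild type, and in KO mice the chromatin remodeling factor Smarcad1 was deleted from a conditional loxP allele in the epithelium of the gut with Vil-Cre, a Cre driven by the Villin promoter, which is active in that epithelium. Both groups were C57BL/6, the sample was a whole crypt isolate, and neither an age nor a statement that replicates came from separate animals was given in the labels. For H3K9me3 and for dimethylated lysine 9 (H3K9me2) there were 3 WT and 3 KO libraries and 1 input library per genotype, 16 libraries in all. The p-values therefore measure the spread between these libraries, and the KO mice carry a Villin promoter construct that the WT label does not name. The deletion of Smarcad1 was not checked in these tables.

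H3K9me3 is a mark of constitutive heterochromatin, placed by histone methyltransferases and read by HP1 proteins, and it is known for covering pericentromeric satellite repeats, retrotransposons and clusters of zinc finger genes. Satellite and ribosomal RNA repeats occur in long arrays of near-identical units that a genome assembly holds only in part. Reads from all copies then pile up on the few that are assembled, in input as well as in ChIP libraries, and reads from near-identical copies cannot be assigned to one of them with certainty.

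Sequences of the GRCm38 genome, plus strand, show what some of the densest peaks hold. The first 3 are 240-base windows of peaks on chromosomes 9 and 2, shown because these peaks lie far apart and share sequence. The positions are chr9:3007550-3007789 for Gm26870 (place 18), chr9:35305340-35305579 for AC160116.1 (place 2) and chr2:98666665-98666904 for Gm10800 (place 1). Capitals mark bases in 31-base words found on either strand anywhere in either of the other 2 peaks, also outside the windows shown. They were 164, 166 and 206 of the 240 bases.
Gm26870: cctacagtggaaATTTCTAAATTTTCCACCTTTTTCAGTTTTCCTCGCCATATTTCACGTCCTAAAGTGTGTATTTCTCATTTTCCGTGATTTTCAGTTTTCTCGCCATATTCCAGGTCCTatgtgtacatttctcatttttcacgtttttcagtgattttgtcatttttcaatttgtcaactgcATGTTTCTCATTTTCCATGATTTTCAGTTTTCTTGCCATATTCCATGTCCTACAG
AC160116.1: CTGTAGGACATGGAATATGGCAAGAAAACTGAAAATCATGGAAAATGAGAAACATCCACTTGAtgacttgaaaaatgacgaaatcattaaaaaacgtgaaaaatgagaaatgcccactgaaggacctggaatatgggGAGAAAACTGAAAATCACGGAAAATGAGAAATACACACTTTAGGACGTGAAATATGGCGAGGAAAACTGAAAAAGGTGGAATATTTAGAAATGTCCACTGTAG
Gm10800: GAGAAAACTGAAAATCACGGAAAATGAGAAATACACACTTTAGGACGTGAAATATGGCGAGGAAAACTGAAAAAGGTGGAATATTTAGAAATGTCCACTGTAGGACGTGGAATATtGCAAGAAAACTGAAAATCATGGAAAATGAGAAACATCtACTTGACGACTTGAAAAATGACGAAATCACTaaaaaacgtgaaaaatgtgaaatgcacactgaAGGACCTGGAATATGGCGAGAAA
The letters are those of the mouse major satellite, the repeat of pericentromeric heterochromatin. The next window, chr17:39846233-39846472, crosses the edge of an annotated ribosomal RNA gene (CT010467.1, minus strand) in the peak of place 5, and its capitals mark the bases inside that gene.
Ribosomal RNA gene edge: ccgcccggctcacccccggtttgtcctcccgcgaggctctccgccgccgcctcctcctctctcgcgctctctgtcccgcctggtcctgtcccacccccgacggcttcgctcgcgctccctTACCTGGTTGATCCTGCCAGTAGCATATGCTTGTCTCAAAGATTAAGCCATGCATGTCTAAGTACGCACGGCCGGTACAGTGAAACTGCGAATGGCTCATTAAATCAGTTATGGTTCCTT
The following pair, chr17:35422015-35422254 near H2-Q6 (place 97) and chr17:35436443-35436682 near H2-Q7 (place 307), is shown because both peaks were lower in KO. Capitals mark shared 31-base words, 239 of 240 bases, and the single substitution was A121C, counted from 1 at the left end of the window with the H2-Q6 base first.
H2-Q6: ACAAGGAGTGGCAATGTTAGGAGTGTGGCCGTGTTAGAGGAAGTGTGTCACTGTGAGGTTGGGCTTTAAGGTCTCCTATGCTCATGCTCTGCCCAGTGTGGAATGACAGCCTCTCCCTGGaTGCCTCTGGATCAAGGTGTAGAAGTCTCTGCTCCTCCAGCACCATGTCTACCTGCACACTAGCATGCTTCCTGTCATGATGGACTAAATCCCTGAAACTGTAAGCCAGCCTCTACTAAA
H2-Q7: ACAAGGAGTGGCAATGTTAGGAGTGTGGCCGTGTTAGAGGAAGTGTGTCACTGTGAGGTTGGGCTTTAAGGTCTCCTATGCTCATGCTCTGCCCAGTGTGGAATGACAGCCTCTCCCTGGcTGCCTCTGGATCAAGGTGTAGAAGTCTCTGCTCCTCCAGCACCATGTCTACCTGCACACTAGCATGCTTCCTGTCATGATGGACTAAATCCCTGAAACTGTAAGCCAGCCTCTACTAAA
The sequence chr1:74409134-74409383, from the RefSeq promoter table of GRCm38.p6, is the stretch before the start of Vil1 that the peak of place 23 covers, shown because that peak had the highest KO to WT input ratio. Capitals mark the 50 bases nearest the start.
Vil1 promoter: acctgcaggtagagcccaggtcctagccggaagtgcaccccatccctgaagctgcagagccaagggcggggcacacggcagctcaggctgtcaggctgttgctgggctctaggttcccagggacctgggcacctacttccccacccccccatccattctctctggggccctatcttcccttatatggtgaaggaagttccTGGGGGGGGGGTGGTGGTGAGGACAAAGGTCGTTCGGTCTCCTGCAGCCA
The last sequence is the whole peak of place 500, chr1:81352801-81353100, shown as an example of the many narrow members. Capitals mark bases outside annotated repeats, here all 300.
Place 500: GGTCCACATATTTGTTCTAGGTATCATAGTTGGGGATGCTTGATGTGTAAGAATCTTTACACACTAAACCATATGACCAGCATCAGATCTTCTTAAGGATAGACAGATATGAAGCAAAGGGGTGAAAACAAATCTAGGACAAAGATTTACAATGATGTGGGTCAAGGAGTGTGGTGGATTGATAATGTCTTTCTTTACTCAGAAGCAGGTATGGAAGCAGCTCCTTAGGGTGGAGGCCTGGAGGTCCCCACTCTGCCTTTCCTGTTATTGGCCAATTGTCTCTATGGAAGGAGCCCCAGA

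Input density ran from 3106 reads per kb at place 1 to 35.0 at place 500, with a median of 38.3, against a median of 21 over all peaks. These values chose the members and are given as a description. The steepest part of the range lay in the first places, and 29 members held 100 or more reads per kb and 63 held 50 or more. At the other end the order ended in ties, since 199 peaks shared the value of 35.0 and 11 of them were taken in the order of the deposited table, all from chromosome 1. The last peaks inside were Dnah7a with 8 WT and 13 KO input reads, Erbb4 with 7 and 14, and an intergenic peak with 12 and 9. The first peaks outside held 13 and 8, 7 and 14, and 13 and 8 reads, so they did not differ from the last members in input reads.

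Width separated 2 kinds of member. There were 322 members of 300 bp, the smallest width in the table, and each held 21 to 33 reads in both inputs together. The other 178 members were 450 to 73500 bp wide with a median of 1950 bp, and held 1.49% of all input reads in peaks, against 0.0432% in the narrow ones. The regions were chosen under the name collapsed or high-copy sequence. Copies in the assembly cannot test the word collapsed, since an assembly holds such arrays only in part. A minority of the members, wide or narrow, had many copies in the assembly. Copy number was read as how often 31-base words of a peak occur in GRCm38. For the shares of groups 1 word per 100 bases was sampled, which leaves few words in a narrow peak. The median word occurred 5 or more times in 25.8% of wide members, against 9.56% of the other wide peaks. For narrow members it was 18.9% against 37.6% of the other 300 bp peaks, the opposite order. In the median narrow member 100% of the sampled words occurred once. For the 29 members with 100 or more input reads per kb every word was counted. Of these, 24 had a median of 2 copies or fewer in the assembly and 3 had 5 or more, while 20 held at least 1 word with 1000 or more copies.

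**Figure D1:**
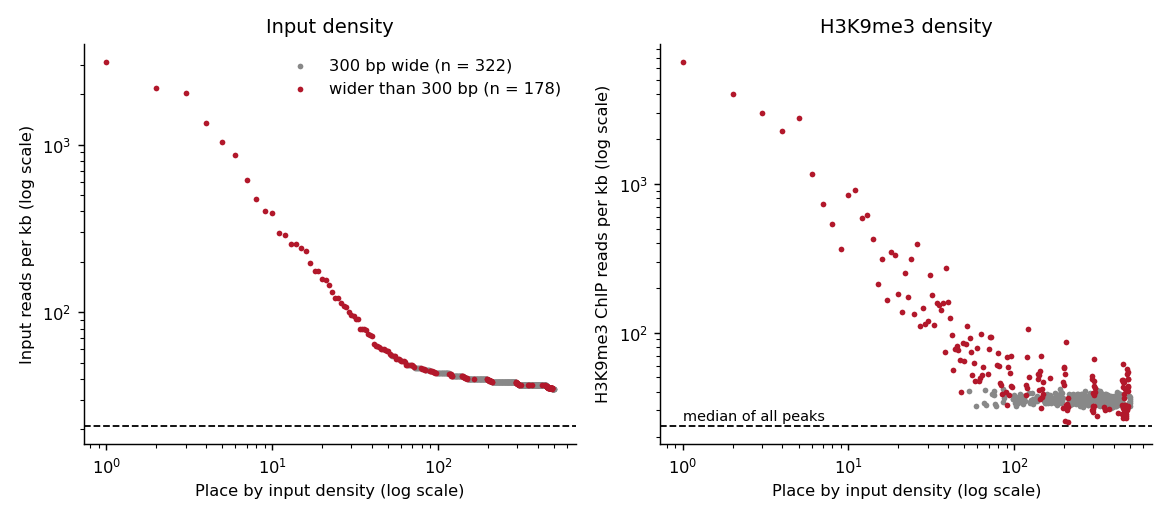
Input reads per kb (left) and H3K9me3 ChIP reads per kb (right), both on log scales, for the 500 members by place, with the median of all peaks as a dashed line; grey points are the 322 members of 300 bp and red points the 178 wider ones. Input falls from 3106 to 35.0 reads per kb by construction, and ChIP density falls with it, from a median of 601 in the first 20 places to 34.8 in the last 300.

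Of the first 20 places, 8 overlapped an exon, 5 an intron alone and 7 were intergenic, and among them were peaks with satellite words and the ribosomal RNA gene. The peak of place 1 (chr2:98665951-98669550, Gm10800) held 11516 WT and 10847 KO input reads in 3600 bp. The peak of place 7 (chr11:3126751-3200250), 73500 bp over Pisd-ps1, Sfi1 and Drg1, held 42726 and 47209 input reads, the most of any member. The peak of place 5 (chr17:39839701-39849000, Gm26917) covered the ribosomal RNA gene and held 9258 and 10016 reads. Among protein-coding genes with a member in the first 20 places were Aida (place 6), Cdk8 (place 10), a kinase of the Mediator complex, Zc3h7a (place 11), Lars2 (place 14), the mitochondrial leucyl-tRNA synthetase and Fbxw4 (place 17), an F-box protein. Zc3h7a, Lars2 and Fbxw4 were picked for naming after their values were seen.

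Most members lay away from chromosome ends. Of the 500, 39 (7.80%) lay within 1000 kb of an end of an assembled chromosome, against 1.09% of all peaks, and 13 of the 30 members in places 21 to 50 did. Among narrow members the share was 0.932%. Exons were overlapped by 16.2% of members against 6.73% of all peaks, introns alone by 21.2% against 24.3%, and 62.6% were intergenic against 69.0%. The excess over exons lay in the wide members, at 37.1%, and narrow members stood at 4.66%. Wide peaks have more room to overlap an exon, and the other wide peaks, which had a median width of 1500 bp, stood at 6.88%. Chromosome 4 held 66 members, 13.2% against 5.95% of all peaks, and chromosome 1 held 60, 12% against 9.42%, a count that includes the 11 tied peaks.

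Members within 10 kb of each other formed 458 loci, of which 434 held a single member. Joined over 100 kb, 6 clusters held 5 or more. The largest was chr4:147230701-147614550, with 12 members over C230088H06Rik, Gm15951 and the zinc finger genes Zfp979 and Zfp985. The next was chr1:85243951-85347300, with 11 members over C130026I21Rik, Gm2619 and Gm16025. Clusters of 6 members lay at chr13:12806101-12942750 over CT033774.3 and CT033792.2, at chr17:13229851-13550850 over Smok2b, Tcp10c and Tcte2 of the t-complex region, and at chrX:169972651-170006250 over Mid1. A cluster of 5 lay at chr9:2999851-3036900 over Gm26870. By gene lists, predicted genes, with Gm or Rik names, accounted for 92 members (18.4% against 8.89% of all peaks) and tandem or ampliconic families such as Mup, Olfr, Skint and Vmn for 25 (5.00% against 2.39%). Zinc finger genes had 4 members (0.8% against 0.507%), immune receptor segments 3 (0.6% against 0.358%), ribosomal RNA gene names 1 (n-R5s165, 0.2% against 0.0221%), and the list of other small RNAs matched 1 (0.2% against 0.148%) through the word tRNA in the description of Lars2.

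The 2 inputs, 1 library each, held 8838386 (WT) and 8452186 (KO) reads in peaks, of which the KO share was 48.9%. An exact Clopper-Pearson 95% interval on the KO share of a member covers counting error only and says nothing of differences between mice. The input counts also chose the members, so a peak high in 1 of the 2 inputs was more likely to be among them, and the wide members held a median of 294.5 input reads against 59 over all peaks, which narrows their intervals. The counts that follow are therefore a description. That interval left out 48.9% in 62 members (12.4%), 45 with more KO reads and 17 with fewer, against 6.3% of all peaks. In the first 50 places it did so in 46.0%, 20 above and 3 below, and in narrow members in 5.28%. The median KO to WT ratio, scaled to the total reads, was 1.05 over the members and 1.09 over the wide ones, against 1.00 over all peaks.

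Vil1, the actin-bundling villin of microvilli, and Mt1, a metallothionein that binds metals, had the highest ratios. Both entered the 500 through the KO input, since the WT input alone held 21.9 reads per kb at Vil1 and 26.7 at Mt1, under the 35.0 of place 500, so their ratios are tied to the choice of members and are a description. The Vil1 peak (chr1:74401801-74415300, place 23) held 296 WT and 3288 KO input reads, a scaled ratio of 11.6 and a KO share of 91.7% (95% interval 90.8 to 92.6%). The Mt1 peak (chr8:94179151-94180650, place 26) held 40 and 302 reads, a ratio of 7.90 and a share of 88.3% (84.4 to 91.5%). Both genes had far more KO than WT reads without any antibody. No other member had a ratio above that of Cdyl2 (place 261), a chromodomain protein gene, with 4 and 19 reads and a ratio of 4.97, followed by a chromosome 18 peak (place 191) with 5 and 19 and a chromosome 17 peak (place 440) with 5 and 17. These narrow members rest on few reads.

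The 5 lowest ratios were at places 196, 30, 126, 211 and 473. The intergenic peak chr11:3099751-3113100 (place 30) held 2093 WT and 477 KO input reads, a ratio of 0.238 and a KO share of 18.6% (17.1 to 20.1%). On chromosome X, a 300 bp peak at 31161901 (place 196) held 22 and 2 reads and a 1650 bp peak at 31231801 (place 211) held 100 and 27, ratios of 0.0951 and 0.282. Skint5 (place 126), of a family of skin and thymus immunoglobulin-like genes, had 20 and 5 reads (ratio 0.261), and a chromosome 11 peak (place 473) had 25 and 7 (0.293). In the H3K9me2 input pair, the wider region around place 196 (chrX:31158451-31163100) held 40 WT and 111 KO reads, a ratio of 2.63, while the regions at Skint5, place 191, place 440 and place 30 had ratios of 0.973, 0.992, 1.14 and 0.474. These regions differ in extent from the H3K9me3 peaks, so the 2 input pairs were not compared over the same bases. The peak chrX:143482801-143483400 (place 8) held 358 and 211 reads. The 6 Mid1 members all had ratios over 1, from 1.12 to 2.20, and the Erdr1 peak on chromosome Y (place 22) had 2074 and 2823 reads, a ratio of 1.42. Mid1, a microtubule-associated ubiquitin ligase gene, crosses the boundary of the pseudoautosomal region in this strain, and Erdr1 lies within that region.

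**Figure D2:**
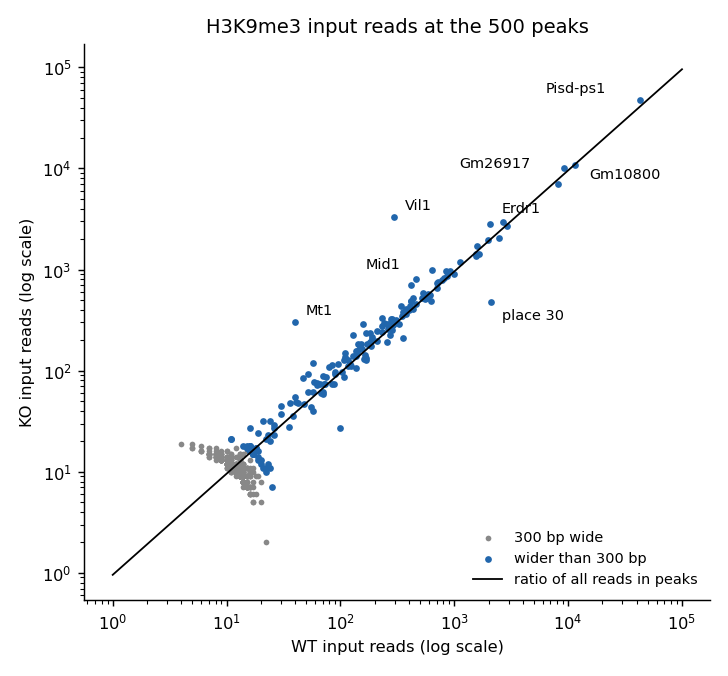
WT against KO input reads of the 500 members on log scales, with the ratio of all reads in peaks as a line; grey points are members of 300 bp and blue points wider ones. Vil1 (296 and 3288 reads) and Mt1 (40 and 302) stand above the line and the chromosome 11 peak of place 30 (2093 and 477) below it.

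H3K9me3 reads, recovered from the ranks of the deposited values, numbered 7060892 in KO1 to 11830556 in KO2 over all peaks. ChIP density, taken from the deposited values, followed input density, with a median of 601 reads per kb in places 1 to 20, 129 in places 21 to 50, 45.2 in places 51 to 100 and 34.8 in places 201 to 500, against 23.6 over all peaks. Those values have matched distributions, and recovered counts past 264 in KO1 to 402 in KO2 were extrapolated from them. Densities and ratios to input in the first places are therefore approximate. Relative to input, each scaled to all reads in peaks, the median log2 ratio was -0.31 over the members and -0.05 over all peaks. It was 0.50 in places 1 to 20 and 0.13 in places 21 to 50. A peak chosen for many input reads has a low ratio by that choice, so these ratios are a description. The members took 1.98, 1.93 and 1.88% of the H3K9me3 reads in WT1, WT2 and WT3 and 1.85, 1.98 and 1.96% in KO1, KO2 and KO3. The groups overlapped, at 1.93% ± 0.0530 (SD, n = 3) in WT and 1.93% ± 0.0705 (SD, n = 3) in KO, and a two-sided exact permutation test gave p = 1, where the smallest p possible with 3 against 3 is 0.1. Counts of 51 to 61 members per library were extrapolated from values with matched distributions, which draws the shares of the libraries together. The test therefore cannot show that the shares were equal. Without the Vil1 and Mt1 peaks, a choice made after seeing the data, the KO share was lower by 0.0532 percentage points (exact permutation p = 0.5).

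In the test of KO against WT, 12 of the 500 members (2.40%) passed an adjusted p of 0.05 (limma on the deposited log2 values of all peaks, Benjamini-Hochberg), against 2.71% of all peaks. Of these, 8 were lower in KO, where 2.46% of all peaks were lower, and 4 were higher, where 0.252% of all peaks were higher. Of the 4 higher, 2 (Vil1 and Mt1) were members through the KO input alone. All 12 were wider than 300 bp, 6.74% of the wide members against 2.83% of all wide peaks. Among the 12, Vil1, Mt1 and Mucl2 were members through the input of the genotype in which they were high. Wide members also held more input reads, a median of 294.5 against 62 in the other wide peaks. The 2 shares are therefore a description. The median log2 difference was 0.02 over the members and 0.03 over all peaks. On recovered reads edgeR called 11 members lower and 3 higher, where 2.75% and 0.267% of all peaks were, and DESeq2 called 5 and 2 of the 142 members with an adjusted p, where 1.47% and 0.0815% of all peaks with one were. The 2 higher calls of DESeq2, and 2 of the 3 of edgeR, were Vil1 and Mt1, so the higher counts are read against no background. Leaving out KO1 gave 13 higher members in place of 4, where 0.2% of all peaks were higher in that fit, and 10 of the 11 added ones were in the first 24 places (Kctd16, Cdk8, Zc3h7a, Fbxw4, Gm26870, Cmss1 and peaks without a gene). Leaving out WT2 gave 8 higher members, where 0.218% of all peaks were higher. Where reads of several copies pile up on a member, more copies and more of the mark per copy cannot be told apart.

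The 2 largest differences were again those of Vil1 and Mt1. H3K9me3 at Vil1 was 5.50, 5.57 and 5.37 in WT1, WT2 and WT3 and 12.34, 11.97 and 12.21 in KO1, KO2 and KO3, in log2 reads. All KO values lay above all WT values, with a log2 difference of 6.69 ± 0.08 (SE). At Mt1 the WT values were 2.53, 2.43 and 2.25 and the KO values 9.82, 10.37 and 10.37. The difference was 7.78 ± 0.15 (SE), again with no overlap. Since both peaks were among the members through their KO input reads alone, these differences are given as a description, with no test. With the log2 input ratio taken off, 3.16 remained at Vil1 and 4.83 at Mt1. The KO mice carry Cre under the Villin promoter, and the part of that construct in these reads was not tested.

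The other 2 higher members changed little. At Cldn34d (place 27, chrX:76598401-76599300), of the claudin family of tight-junction proteins, the WT values were 6.52, 6.34 and 6.14 and the KO values 6.98, 7.02 and 6.60. The groups did not overlap, and the difference of 0.53 (limma adjusted p = 0.0150) lost its call when WT2, WT3, KO1 or KO2 was left out, with 0.44 and an adjusted p of 0.162 without WT3, and with DESeq2 (adjusted p = 0.193). At Gm2619 (place 202, chr1:85291651-85298100) the WT values were 8.15, 8.26 and 8.33 and the KO values 8.65, 8.37 and 8.64. The difference of 0.31 (limma adjusted p = 0.0399) was 0.01 with the input ratio taken off, and its adjusted p was 0.186 with edgeR on recovered reads and 0.225 without WT1. It also lost the call without WT2, WT3, KO1 or KO3, with adjusted p-values of 0.0515 to 0.240.

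Of the 8 lower members, 3 kept their call without any single library, and 1 of these 3 (Mucl2) was a member through the WT input alone. At Mup5 (place 139, chr4:61819951-61833300), a major urinary protein that carries pheromones, the WT values were 9.46, 9.55 and 9.61 and the KO values 9.10, 9.17 and 9.14. The groups did not overlap and the difference was -0.40 (limma adjusted p = 0.000103), or -0.61 with the input ratio taken off. A peak 4509 bp from Mucl2 (place 212, chr15:103887451-103891350), a mucin-like gene, had 7.50, 7.37 and 7.29 in WT and 6.90, 6.79 and 6.82 in KO. Its difference (log2, KO minus WT) was -0.55, with no overlap, and -0.29 with the input ratio taken off. It was a member through the WT input, at 42.8 reads per kb, since the KO input alone held 34.1, under the 35.0 of place 500, so its difference is given as a description, with no test. An intergenic peak on chromosome 7 (place 91, chr7:106239601-106243200) had 6.91, 7.28 and 7.33 in WT and 6.30, 6.52 and 6.66 in KO. Its difference was -0.67 (limma adjusted p = 0.000434), and the groups did not overlap.

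The pair at H2-Q6 and H2-Q7, non-classical class I genes of the major histocompatibility complex, rested on fewer libraries. The peak 2350 bp from H2-Q6 (place 97, chr17:35421001-35422500) had 6.52, 5.67 and 6.69 in WT and 5.26, 5.88 and 5.59 in KO. WT2 lay below KO2, so the groups overlapped, and the difference was -0.72 (limma adjusted p = 0.0178). The peak 1955 bp from H2-Q7 (place 307, chr17:35434501-35437200) had 7.11, 6.58 and 7.33 in WT and 6.25, 6.52 and 6.46 in KO. Its difference was -0.59 (limma adjusted p = 0.00691), with no overlap. Both lost the call without WT1, WT3 or KO1, and without WT3 the differences were -0.52 and -0.43, with adjusted p-values of 0.316 and 0.217. With DESeq2 on recovered reads they were 0.688 and 0.0749, so both calls were lost there too. As the windows printed above show, the 2 peaks share long identical stretches, so they are not independent and reads of one may be counted at the other. Their inputs went the other way, with 47 WT and 84 KO reads at H2-Q6 and 84 and 115 at H2-Q7, and taking the input ratio off gave -1.61 and -1.11. The WT input alone held 31.3 and 31.1 reads per kb, under the 35.0 of place 500, so both were members through the KO input and these input ratios are tied to that choice.

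The remaining 3 lower members differed by small amounts or through 1 library. At CT033774.3 (place 64, chr13:12876751-12934650) the WT values were 11.63, 11.63 and 11.75 and the KO values 11.51, 11.28 and 11.51. The difference was -0.24 (limma adjusted p = 0.00518) without overlap, and it lost the call without WT3 (adjusted p = 0.0837) or KO2 (0.162). Values of this peak recur at other dense peaks, such as 11.63 and 11.51 at place 65, so they state ranks rather than reads. An intergenic peak on chromosome 3 (place 147, chr3:106240951-106264200) had 9.95, 10.11 and 10.07 in WT and 9.82, 9.80 and 9.74 in KO. Its difference was -0.26 (limma adjusted p = 0.0110) without overlap, and the call was lost without WT2, WT3 or KO3, with adjusted p-values of 0.0725 to 0.110. The peak of place 30 on chromosome 11 had 12.34, 9.85 and 9.99 in WT and 9.53, 9.86 and 9.75 in KO. WT1 stood apart from the other 5 values, which overlapped, and the difference was -1.02 (limma adjusted p = 0.00699). Without WT1 it was -0.21 (adjusted p = 0.233), DESeq2 gave an adjusted p of 0.913, and with the input ratio taken off it turned to 1.05.

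**Figure D3:**
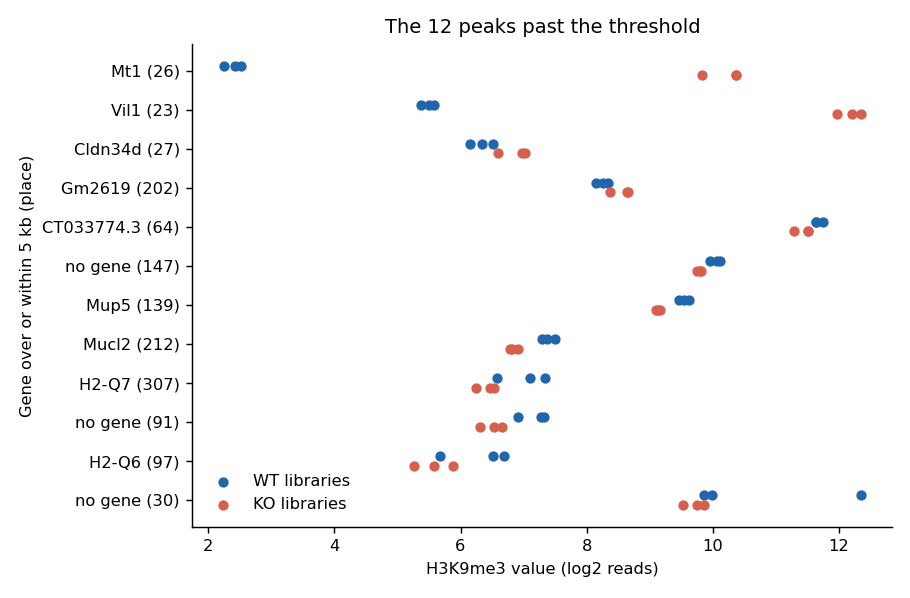
H3K9me3 values in log2 reads of the 12 members past the threshold, 1 point per library, WT in blue and KO in red, ordered by the log2 difference and named by gene with the place in brackets. Vil1 and Mt1 differ by 6.69 and 7.78, the other 10 by about 1 or less, and the lower call at place 30 has a single high WT library.

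The libraries of a genotype spread widely at the densest members. The spread of a peak was the SD within genotype of its log2 values, and it was compared with the 95th percentile of peaks whose mean lay within 0.1 on the log2 scale, which 5% of peaks exceed by construction. For 481 members such peaks existed, and 76 (15.8%) exceeded that percentile. In the first 50 places 30 of 39 did (76.9%), in places 51 to 100 13 of 44 (29.5%), and in places 101 to 500 33 of 398 (8.29%). By width, 59 of 159 wide members did (37.1%) against 17 of 322 narrow ones (5.28%). The median SD of the members was 0.40 and that of all peaks 0.24, but narrow peaks have few reads, and the narrow members at 0.44 had the spread of peaks of the same level, 0.44. The members with the largest SD were narrow, at place 186 on chromosome 17 (1.55), Sirpb1a (place 230, 1.39), Olfr761 (place 284, 1.28), Gm4340 (place 86, 1.25) and place 188 (1.22). At Sirpb1a, a signal regulatory protein gene, the values were 3.10, 3.77 and 3.57 in WT and 3.93, 3.59 and 0.43 in KO, so KO3 alone was low. Apart from places 3 and 7, whose values were equal in all libraries, the smallest SDs were 0.04 at Gm26573 (place 92), 0.04 at place 144 and 0.05 at C130026I21Rik (place 141).

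**Figure D4:**
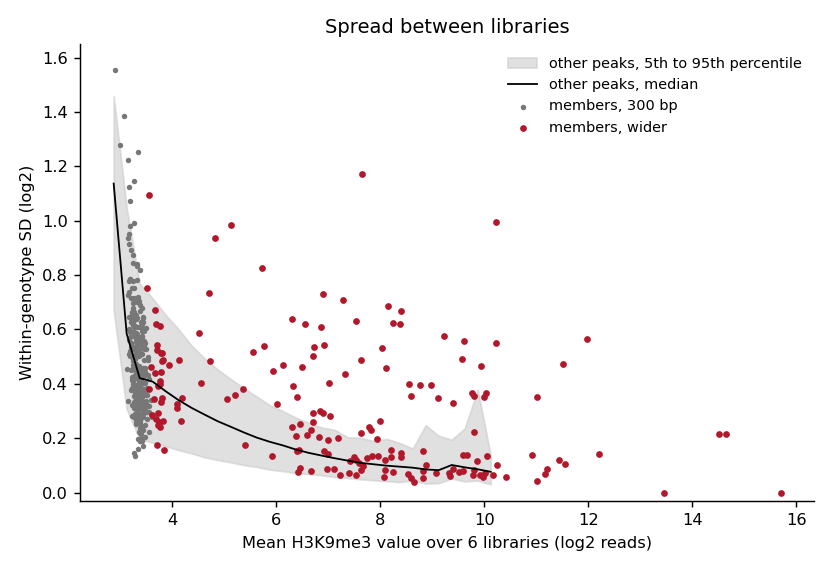
Within-genotype SD (log2) against the mean H3K9me3 value over the 6 libraries (log2 reads); the grey band spans the 5th to 95th percentile of the other peaks, the line is their median, red points are members wider than 300 bp and grey points members of 300 bp. Of the wide members that could be compared 59 of 159 lie above the 95th percentile of peaks of the same level, and 17 of 322 narrow ones do.

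The same libraries were low or high at many of these peaks. In the first 50 places WT3 was the lowest library 18 times and KO1 15 times, while KO3 was the highest 21 times. With the peak of place 18 itself, the members that share at least 50 31-base words with it were 11 in number, in places 1, 2, 3, 18, 32, 40, 71, 72, 82, 95 and 121. At AC160116.1 (place 2, chr9:35305051-35305800) the values were 11.45, 11.97 and 10.94 in WT1, WT2 and WT3 and 11.11, 11.63 and 11.97 in KO1, KO2 and KO3. At Gm26870 (place 18, chr9:3005551-3008100) they were 9.60, 10.06 and 9.27 and 9.51, 10.04 and 10.13. WT3 and KO1 were low and WT2, KO2 and KO3 high in both, so each genotype held low and high libraries. Over the 11 peaks, of which places 1 to 3 hold values that several libraries share through their ranks, the median deviation from the mean of the peak was -0.09, 0.38 and -0.50 in the WT libraries and -0.23, 0.16 and 0.31 in the KO libraries. Over the 8 peaks past place 3 it was -0.10, 0.38 and -0.50 in WT and -0.24, 0.24 and 0.34 in KO. None of the 11 passed the test with all libraries. Without KO1, 2 of the 11 were higher in KO by limma (place 18 by 0.45 and place 71 by 0.60), where 0.2% of all peaks were. Without WT2, 4 were (place 18 by 0.46, place 32 by 0.37, place 72 by 0.69 and place 95 by 0.44), where 0.218% of all peaks were. Without WT1, WT3, KO2 or KO3 none of the 11 was called by limma.

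A partly similar order was seen at other dense peaks. At Aida (place 6, chr1:183298951-183299850) the values were 10.15, 10.16 and 9.49 in WT and 9.71, 10.25 and 10.26 in KO. At place 8 on chromosome X they were 8.05, 8.78 and 7.26 and 7.93, 8.62 and 8.78, and at Kctd16 (place 9), a subunit of GABA-B receptors, 8.11, 8.29 and 7.32 and 7.56, 8.33 and 8.61. WT3 was the lowest library in these 3, with KO1 next, and the groups overlapped. At Cdk8 (place 10, chr5:146260801-146261550) the values were 9.63, 9.17 and 8.89 in WT and 8.39, 9.44 and 9.80 in KO. At Zc3h7a (place 11) they were 9.91, 9.59 and 9.28 in WT and 8.80, 9.85 and 10.19 in KO. KO1 was the lowest and KO3 the highest at both, and the KO values enclosed the WT values. KO1 was also the library with the fewest reads, and the part of depth in this order was not tested.

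The Mid1 members had another order. At the densest (place 34, chrX:169978351-169986300) the values were 10.13, 10.37 and 10.21 in WT and 10.56, 10.78 and 9.35 in KO. KO2 was the highest and KO3 the lowest library in each of the 6 members over Mid1. At Erdr1 (place 22, chrY:90796501-90813300) the values were 11.75, 12.21 and 12.34 in WT and 12.21, 12.34 and 11.00 in KO, with KO3 lowest again. Without KO3 place 34 was higher in KO by 0.43 (limma adjusted p = 9.7e-05), and without KO2 the Mid1 peak of place 36 was lower, at -0.62 (0.00133). The direction at these peaks therefore rested on single KO libraries. The H3K9me3 input of KO was 1 library, so a value for the input of KO2 or KO3 alone was not analysed here.

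**Figure D5:**
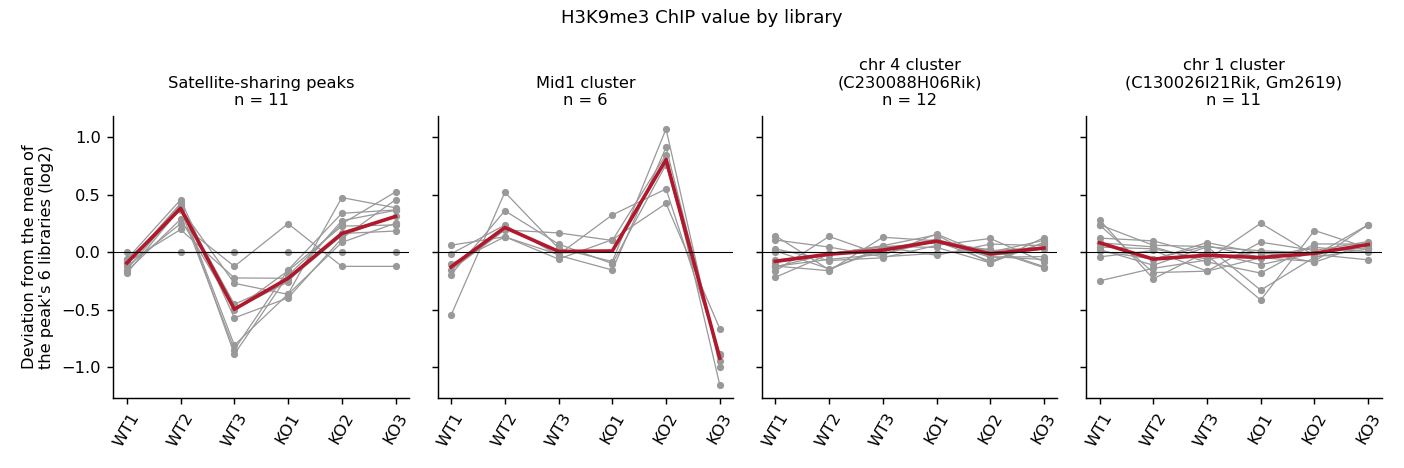
Deviation of each library from the mean of the 6 libraries of a peak (log2), 1 grey line per peak and the median in red, for the 11 peaks that share satellite words, the 6 Mid1 peaks and the chromosome 4 and chromosome 1 clusters of 12 and 11 peaks. The first set is lowest in WT3 (median -0.50), the Mid1 set is lowest in KO3 in all 6 peaks, and the other 2 sets stay near 0.

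Other clusters were even between libraries. The chromosome 4 cluster over C230088H06Rik had a median SD of 0.08, and 0 of 10 members exceeded the 95th percentile of peaks of the same level. The chromosome 1 cluster over C130026I21Rik and Gm2619 had a median SD of 0.12, and 0 of 11 did. The chromosome 17 cluster of Smok2b, Tcp10c and Tcte2 was uneven, with a median SD of 0.92 and 4 of 6 above. At Tcte2 (place 48, chr17:13543201-13550850) the values were 8.79, 8.89 and 7.31 in WT and 7.50, 8.25 and 8.17 in KO. WT3 lay below every KO library, and without WT3 the peak was lower in KO by a log2 difference of -0.87 (limma adjusted p = 4.27e-06), against -0.36 with it (0.488). With all 6 libraries, edgeR on recovered reads called it lower, at -0.46 (adjusted p = 0.0436, Benjamini-Hochberg).

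At several of the densest members the deposited values state ranks rather than reads. The values had been transformed so that the libraries share 1 distribution, and the highest peaks of each library receive the same few values. The values 11.97, 12.21 and 12.34, for example, recur, 1 or more of them at each, at places 2, 4 and 22, in the KO libraries of Vil1 and in WT1 at place 30. Place 4, an intergenic peak (chr15:75085201-75087300), had 12.21, 12.34 and 12.21 in WT and 11.97, 12.21 and 12.34 in KO. Place 7 was 15.71 and place 3 (Gm10801) 13.45 in all 6 libraries. Place 1 stood at 14.77 in WT2 and KO1 and at 14.40 in the other 4, and place 5, the ribosomal RNA gene, at 14.40 in WT2 and KO1 and at 14.77 in the other 4. The 2 peaks thus exchanged ranks between libraries. At these peaks a log2 difference of 0 says nothing of how equal the read counts were.

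H3K9me2 regions overlapped 263 of the members (52.6%), against 68.2% of all H3K9me3 peaks. None of places 1 to 29 was overlapped, and the first was place 30, with 2 of the first 50 places, 21 of places 51 to 100 and 240 of places 101 to 500. The members fell in 253 of the 47065 regions. None of these regions was called lower in KO by edgeR with Benjamini-Hochberg adjustment, where 0.00212% of all regions were, and none was called higher, where 0% of all regions were. At an unadjusted p of 0.05 edgeR had 4 of the 253 (1.58%, against 3.12% of all regions), DESeq2 2 (1.43% of all regions) and limma 8 (3.12% of all regions), and both other tools called 0 after adjustment. The median input reads per H3K9me2 peak were 72.4 in these regions and 48.5 over all, and the median KO to WT input ratio was 1.00.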

How the data were processed

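The study called peaks with MACS in SeqMonk on all ChIP libraries of a mark pooled against both inputs. Reads had been trimmed with Trim Galore 0.4.4 and mapped to GRCm38 with Bowtie2 2.3.2, per the submitters' processing notes, then filtered on mapping quality with duplicates removed, steps that limit counts in repeats. The deposited H3K9me3 values were log2 read counts per peak with matched distributions, and the deposited inputs log2 counts without that step. The deposited H3K9me2 signal was the mean count per MACS peak of a region, summed here to whole reads within 0.00114. Deposited tables of the authors' own edgeR comparisons (adjusted p-values, H3K9me2 read counts) and 8 standard deviation columns gave no result.

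H3K9me3 was tested with limma 3.58.1 (lmFit, eBayes with trend) over 212313 peaks and H3K9me2 with edgeR 4.0.16 (quasi-likelihood, TMM) over 47065 regions, two-sided, genotype as the single term, 6 libraries each. Reads were recovered from the rank of a value among those of its library, and returned the deposited value within 0.002 for 99.6% of peaks, and 51 to 61 members per library were extrapolated. These served for ratios to input, shares and alternative tests (edgeR, DESeq2 1.42.0), while ChIP densities were taken from the deposited values. The functions were tested on simulated data. ChIP over input had 1 read added. Copies were 31-base words counted in GRCm38, and exons came from GENCODE M21. Groups and replicate numbers came from sample titles. The members, the lists and the tests were chosen with earlier results of these data known. The genes named were those of the first places, of clusters of 5 or more, of the 5 highest and lowest input ratios, of the 5 largest and smallest SDs, of the gene lists and every member past the threshold. R 4.3.3 and Python 3.11.15 were used.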

Additional observations from a re-analysis of the deposited data

How the results depend on the processing

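The 8 lower calls became 5 with DESeq2 (142 members had an adjusted p, and 1.47% of all peaks with one were lower), 1 with a log2 difference of at least 1, 16 among the 1000 densest peaks, and 6 to 10 without 1 library each. The 4 higher calls became 2 with DESeq2, with an adjusted p under 0.01 or with a log2 difference of at least 1, in each case Vil1 and Mt1 alone, and 3 to 13 without 1 library each. The edgeR test on recovered reads called 11 lower and 3 higher, where 2.75% and 0.267% of all peaks were, and 11 of the 14 were shared with limma. The median log2 KO to WT input ratio of 0.06 was 0 unscaled and 0.14 in members of at least 500 bp. The median SD of 0.40 was 0.34 on log2 CPM, 0.27 in wide members (chosen after seeing the data) and 0.35 to 0.39 without 1 library each. ChIP over input of -0.31 was -0.0909 with 5 reads added. The 458 loci were 224 and 939 for the 250 and 1000 densest peaks. The KO minus WT share of 0.00329 percentage points changed sign with no extrapolated member (-0.000456), without Vil1 and Mt1 (-0.0532) and without WT3, KO2 or KO3 (range without 1 library each -0.0228 to 0.0436), and its exact permutation p stayed between 0.3 and 1. The smallest p possible with 3 against 3 is 0.1, so these p-values cannot show that the share was stable. Place 30 was at 1.05 with the input ratio taken off. The cause was not tested.

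Replicate numbers did not pair the libraries: the correlation between libraries of the same number, of deviations from group means over members, was -0.0391, 0.0944 and -0.0437. With a replicate block 8 lower and 4 higher calls were made, and 0 for H3K9me2. Taking all tied peaks in or out gave 10 or 8 lower calls and 4 higher. Narrow members held 21 to 33 input reads, which limits their ratios.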
